A study of Homo sapiens with 8 samples.

Results

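The genes described here encode the proteins that hold neighbouring epithelial cells together: claudins, occludin and their scaffolds at tight junctions, polarity proteins, cadherins and catenins at adherens junctions, desmosomal proteins, connexins of gap junctions, nectins with afadin, and the adhesion molecules CEACAM1 and EPCAM. The 46 genes were taken by symbol from a fixed list in 10 classes, and 42 of them had at least 10 counts in at least 2 of 8 libraries, out of 13943 genes that passed this filter and 38032 gene identifiers in the files. CLDN7, CDH17, GJB2 and GJA1 did not pass. RNA was sequenced from HepG2 cells, a human line derived from a hepatocellular carcinoma and labelled wild type, that had been grown for 8 days either on flat culture plastic (2D-primed, 4 libraries) or on top of Alvetex Strata, a scaffold of porous polystyrene (3D-primed, 4 libraries). No drug was given to either group. Cells of both groups were detached with trypsin before lysis, and all libraries came from the same line, so the comparison is between culture formats of a tumour-derived cell and not with liver tissue. The scaffolds were seeded densely so that cells would form layers, and culture geometry and cell density cannot be told apart. The libraries held 21599630, 23659259, 25019499 and 23947737 counts in 2D-primed cells and 26682128, 22153063, 27844077 and 24616133 in 3D-primed cells.

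Tight junctions seal the space between epithelial cells, and claudins set which ions and molecules may pass. Adherens junctions and desmosomes give mechanical strength, the former by coupling cadherins through catenins to actin and the latter by coupling desmosomal cadherins through plakophilins, plakoglobin and desmoplakin to keratin filaments. In liver, tight junctions close the bile canaliculi off from blood, and gap junctions pass small metabolites and signals between hepatocytes.

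Junction genes were mostly lower in 3D-primed than in 2D-primed cells, with 3 of 4 tight junction scaffolds, the hepatocyte connexin GJB1, OCLN, NECTIN1 and 4 of 9 claudins called on the other side. Of the 42 genes tested, 37 differed between the groups in edgeR's quasi-likelihood F test (Benjamini-Hochberg adjusted p below 0.05, here termed called), which is 88.1%, against 63.9% of all genes tested. Higher levels in 2D-primed cells were called for 27 of them (64.3%), against 31.6% of all genes, and higher levels in 3D-primed cells for 10 (23.8%), against 32.4%. The median log2 fold change of the 42 genes, as 3D-primed over 2D-primed, was -0.31, beside 0.01 over all genes tested. Most changes were modest, since 6 of the 42 (14.3%) were called with at least a 2-fold change, against 11.9% of all genes. The groups did not overlap at all for 35 of the 42 (83.3%), against 59.8% of all genes. The members were chosen with earlier results of these data known, so these shares describe the list and are not a test of it.

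**Figure D1:**
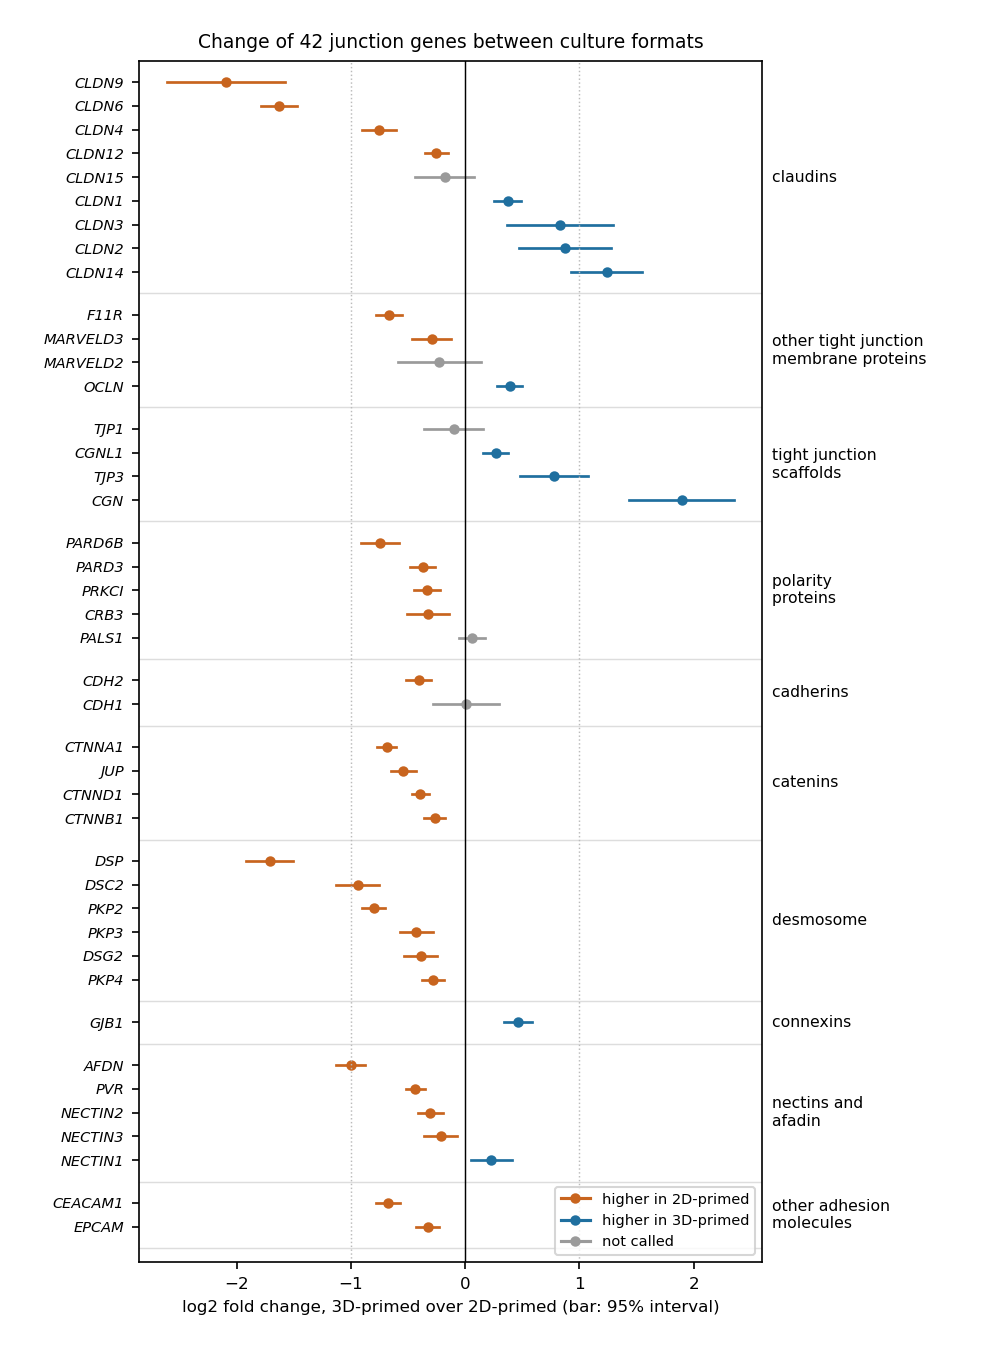
Log2 fold change of the 42 junction genes tested, 3D-primed over 2D-primed (x axis, points, with 95% intervals as bars that are not adjusted for the number of genes), grouped by class (y axis), with dotted lines at a 2-fold change. All catenins and all desmosomal genes lie left of 0, whereas the called scaffolds CGN, TJP3 and CGNL1 and the connexin GJB1 lie right of it.

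Values are given as CPM, that is counts relative to the library size after TMM scaling, and changes as log2FC, the log2 fold change with its standard error (SE). Library values stand in the order of replicate numbers 1 to 4. The labels do not say that replicates came from separate passages or experiments, and p-values therefore measure the spread between these samples. In RNA from whole cultures, fewer expressing cells and less RNA per cell cannot be told apart. Levels of different genes are compared only per length, as CPM per kilobase of the canonical transcript in GENCODE.

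The labelled cell type was checked first. All 9 hepatocyte markers were detected in both groups, and the genes of the adult and fetal plasma proteins albumin and alpha-fetoprotein had high counts. ALB went from 26391 ± 1398 CPM (2D-primed) to 44035 ± 3511 CPM (3D-primed), and AFP from 8679 ± 376 to 18752 ± 553 CPM (SD, n = 4). Of the hepatocyte markers, 7 were called higher in 3D-primed cells, and APOB and SERPINA1 higher in 2D-primed cells. The bile duct keratin KRT19 went the other way, from 282 ± 25.1 to 88.5 ± 7.69 CPM (log2FC -1.67, edgeR adjusted p = 8.0e-08), as did SOX9, with a log2FC of -0.74. Summed per length, the 4 cholangiocyte markers stood at 281 ± 20.2 (2D-primed) and 110.2 ± 4.16 (3D-primed) CPM per kilobase, with KRT19 as the most abundant in 2D-primed cells, whereas KRT7 and CFTR had at most 0.0864 CPM in any library. Of the leukocyte markers, CD3E was at 0 in all 8 libraries and PTPRC had at most 0.0916 CPM, while CD68, a lysosomal protein, fell by 1.08 on the log2 scale, and the summed level of the 4 markers was 43.7 ± 0.683 and 21.3 ± 2.56 CPM per kilobase. The 7 fibroblast markers summed to 26.3 ± 1.03 and 24.4 ± 2.78 CPM per kilobase, led by ACTA2, with COL1A2, COL3A1, DCN and LUM at no more than 0.0886 CPM. Within this list COL1A1, a fibrillar collagen gene, was called higher in 2D-primed cells at 16 to 28 against 0 to 3 counts (log2FC -3.72, edgeR adjusted p = 9.6e-05), and PDGFRB, a growth factor receptor gene, higher in 3D-primed cells (log2FC 0.62, edgeR adjusted p = 1.8e-05). The 5 endothelial markers summed to 1.63 ± 0.183 and 0.939 ± 0.146 CPM per kilobase, led by CDH5 in 2D-primed cells, with KDR at 0 in 7 libraries. CDH5 was called higher in 2D-primed cells, VWF, which encodes a clotting factor carrier, higher in 3D-primed cells (log2FC 0.62, edgeR adjusted p = 0.030), and PECAM1 and TIE1 were not called, at 0.46 and -0.38 (edgeR adjusted p = 0.12 and 0.36). The call of VWF was lost without 2D-primed replicate 1, 2 or 3 or 3D-primed replicate 1 or 3 (edgeR adjusted p up to 0.085), and PECAM1 passed the threshold without 2D-primed replicate 1 (0.048). Genes of mitochondrial DNA took 1.4 to 1.8% of each 2D-primed library and 2.5 to 3.0% of each 3D-primed library. The part of these markers and of the mitochondrial share in the junction results was not tested.

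Claudins, the membrane proteins that form the tight junction strands, changed in both directions. Of the 9 tested, CLDN4, CLDN6, CLDN9 and CLDN12 were called higher in 2D-primed cells, CLDN1, CLDN2, CLDN3 and CLDN14 higher in 3D-primed cells, and CLDN15 was not called. CLDN6 (ENSG00000184697, chr16:3014712-3020071 of GRCh38), a claudin of embryonic epithelia that is expressed again in some tumours, stood at 35.2, 38.3, 37.3 and 38.1 CPM in the 2D-primed libraries and at 12.4, 12.0, 13.3 and 10.4 CPM in the 3D-primed libraries. The groups were far apart, with the highest 3D-primed library well under the lowest 2D-primed one. The level was 3.09-fold higher in 2D-primed cells, a log2FC of -1.63 (SE 0.0713, edgeR adjusted p = 5.8e-08), and ran over -1.69 to -1.56 when single libraries were left out. Its neighbour CLDN9 (ENSG00000213937, chr16:3012923-3014505) had only 8 to 49 counts per library, at 1.51, 2.12, 1.55 and 2.07 CPM in the 2D-primed libraries against 0.490, 0.443, 0.430 and 0.318 CPM in the 3D-primed ones. All 2D-primed libraries were above all 3D-primed ones, and the log2FC of -2.09 (SE 0.231, edgeR adjusted p = 2.1e-05) was the most negative of the members. CLDN6 shared 19.7% of its 31-base words with other genes, chiefly with a processed pseudogene, and CLDN9 shared 3.35% with CLDN6.

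CLDN4 and CLDN3 also lie side by side, on chromosome 7, but moved apart. CLDN4 (ENSG00000189143, chr7:73799542-73832690), a barrier-forming claudin, was at 56.5, 55.4, 60.0 and 52.4 CPM in the 2D-primed libraries against 33.2, 34.9, 29.0 and 35.9 CPM in the 3D-primed ones. The ranges did not overlap, and the fit gave a log2FC of -0.75 (SE 0.0681, edgeR adjusted p = 5.1e-06). CLDN3 (chr7:73768997-73770270) was less abundant per length in both groups and had a log2FC of 0.83 (SE 0.208, edgeR adjusted p = 0.0053), rising from 1.63 ± 0.438 to 2.90 ± 0.361 CPM.

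Of the member claudins that were higher in 3D-primed cells, CLDN14 (ENSG00000159261, chr21:36460621-36576569), a claudin known from liver, kidney and inner ear, changed most, from 2.52, 3.33, 2.93 and 3.25 CPM across the 2D-primed libraries to 8.07, 6.02, 7.96 and 6.31 CPM across the 3D-primed ones. Every 3D-primed library was above every 2D-primed one, and the log2FC was 1.24 (SE 0.138, edgeR adjusted p = 2.3e-05). CLDN2, which forms pores for cations and water, had a log2FC of 0.88 (edgeR adjusted p = 0.0017) at 25 to 71 counts per library. CLDN1 (ENSG00000163347, chr3:190305707-190322446), the broadly expressed barrier claudin, was much more abundant than either, at 77.1, 77.6, 68.4 and 74.5 CPM in the 2D-primed libraries against 102, 90.5, 95.5 and 96.8 CPM in the 3D-primed ones. Its groups did not overlap either, and the log2FC was 0.37 (edgeR adjusted p = 0.00012). CLDN12 had a log2FC of -0.25 (edgeR adjusted p = 0.00058), and CLDN15 had a log2FC of -0.18 with overlapping groups (edgeR adjusted p = 0.21, 95% interval -0.44 to 0.08). CLDN7 was listed with 0 or 1 count in each library.

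The makeup of the claudin pool therefore differed between the groups. Summed per length, the 10 claudins stood at 113, 116, 117 and 114 CPM per kilobase in 2D-primed and 90.1, 85.5, 87.0 and 88.6 in 3D-primed libraries, so the total was lower in all 3D-primed libraries. CLDN1 made up 19.8, 19.5, 16.9 and 19.0% of this sum in 2D-primed and 32.8, 30.7, 31.9 and 31.7% in 3D-primed libraries. CLDN6 took 23.7 ± 0.812% and 10.0 ± 1.09% (SD, n = 4), and CLDN4 28.8 ± 1.32% and 22.4 ± 2.07%. In 3D-primed cells CLDN1 was the most abundant claudin per length, at 27.9 ± 1.37 CPM per kilobase, followed by CLDN12 and CLDN4 at 20.0 ± 0.612 and 19.6 ± 1.80, which overlapped in their spread. In 2D-primed cells CLDN4 led, at 33.1 ± 1.86 CPM per kilobase, before CLDN6, CLDN12 and CLDN1 at 27.2 ± 1.03, 23.8 ± 1.18 and 21.6 ± 1.23. Per kilobase of all annotated exons, the mean shares in 2D-primed and 3D-primed libraries were 28.3 ± 1.70% and 44.9 ± 0.955% for CLDN1, 29.5 ± 0.736% and 11.7 ± 1.17% for CLDN6 and 16.5 ± 0.978% and 12.0 ± 1.26% for CLDN4. The 2D-primed order depended on the length used, since per kilobase of all annotated exons CLDN6 and CLDN1 stood at 21.4 and 20.5, CLDN12 at 12.5 and CLDN4 at 11.9. CLDN1 remained first in 3D-primed cells on that scale, at 26.5 against 10.5 for CLDN12, the next.

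**Figure D2:**
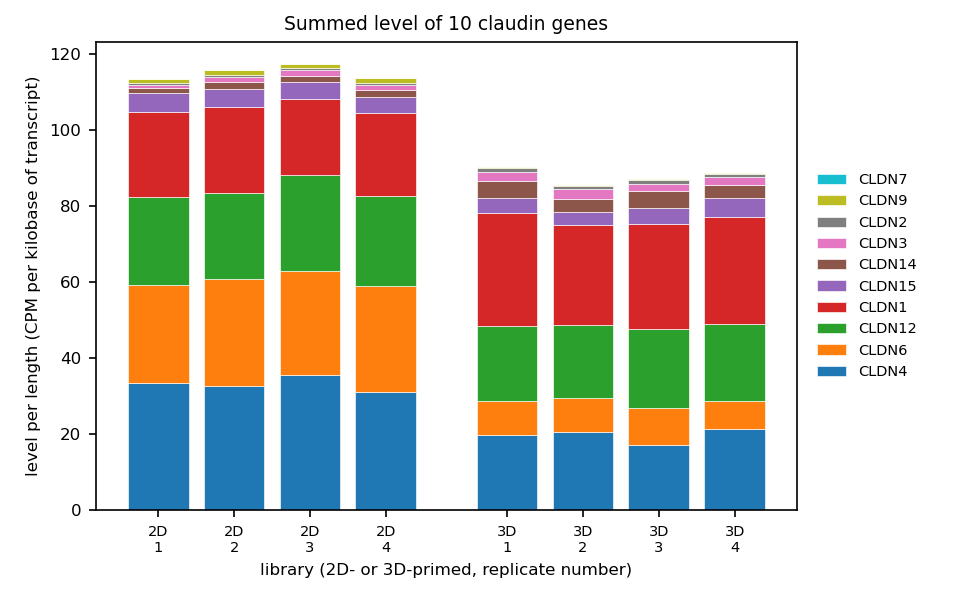
Summed level of the 10 claudin genes in each library (y axis, CPM per kilobase of canonical transcript, stacked bars by gene), for the 4 2D-primed and the 4 3D-primed libraries (x axis). The 3D-primed bars are shorter, 85.5 to 90.1 against 113 to 117, and within them CLDN1 takes the largest part while CLDN6 and CLDN4 take less than in 2D-primed cells.

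Among the other tight junction membrane proteins, occludin and the junctional adhesion molecule JAM-A changed in opposite directions. OCLN (ENSG00000197822, chr5:69492292-69558104), which encodes occludin, stood at 23.7, 26.5, 25.6 and 24.6 CPM in the 2D-primed libraries against 32.1, 32.1, 32.7 and 34.6 CPM in the 3D-primed ones. The 3D-primed values were all higher, with a log2FC of 0.39 (SE 0.0486, edgeR adjusted p = 5.1e-05). F11R (ENSG00000158769, chr1:160995211-161021343), which encodes JAM-A, stood at 198, 198, 204 and 202 CPM in the 2D-primed libraries against 136, 131, 124 and 115 CPM in the 3D-primed ones. Here the 3D-primed values were all lower, with a log2FC of -0.66 (SE 0.0511, edgeR adjusted p = 1.8e-06). F11R shared 39.6% of its words with a read-through gene that was counted separately, at 783 to 928 counts in 2D-primed and 303 to 530 in 3D-primed libraries. The tricellular junction gene MARVELD2 was not called (log2FC -0.22, edgeR adjusted p = 0.25), and 3D-primed replicate 3 was its lowest library, at 10.1 CPM. MARVELD3, of the same family as occludin, had a log2FC of -0.29 (edgeR adjusted p = 0.0069).

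Tight junction scaffolds, which tie the strands to the cytoskeleton, had no member called higher in 2D-primed cells, and 3 of 4 were called higher in 3D-primed cells. CGN (ENSG00000143375, chr1:151510510-151538692), which encodes cingulin, stood at 0.916, 1.21, 0.692 and 0.760 CPM in the 2D-primed libraries against 2.68, 3.72, 3.37 and 3.57 CPM in the 3D-primed ones, on 17 to 94 counts. The lowest 3D-primed library exceeded the highest 2D-primed one more than 2-fold, and the log2FC of 1.89 (SE 0.206, edgeR adjusted p = 1.9e-05) was the most positive of the members. TJP3 (ENSG00000105289, chr19:3708362-3750813), a scaffold that binds claudins, stood at 7.01, 7.39, 5.62 and 7.43 CPM in the 2D-primed libraries against 12.7, 9.87, 10.3 and 14.1 CPM in the 3D-primed ones. The groups did not overlap, and TJP3 had a log2FC of 0.78 (SE 0.133, edgeR adjusted p = 0.00047). The cingulin relative CGNL1 (ENSG00000128849, chr15:57375967-57550717), whose level per length overlapped with that of TJP1 in 3D-primed cells, stood at 30.6, 32.5, 32.5 and 30.7 and 35.7, 40.6, 37.5 and 38.4 CPM, again without overlap (log2FC 0.27, edgeR adjusted p = 0.00068). TJP1, the scaffold gene most used as a tight junction marker, was not called, at 35.4 ± 3.30 and 32.9 ± 5.66 CPM (log2FC -0.10, 95% interval -0.36 to 0.16, edgeR adjusted p = 0.46).

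Of the 5 polarity genes, which mark the apical side of the cell, 4 were called higher in 2D-primed cells. PARD6B (ENSG00000124171, chr20:50731580-50756795), an adaptor of the apical PAR complex, stood at 23.6, 21.7, 23.3 and 20.9 CPM in the 2D-primed libraries against 12.1, 12.5, 14.4 and 14.4 CPM in the 3D-primed ones. PARD3 (ENSG00000148498, chr10:34109560-34815325), the scaffold of that complex and the most abundant of the class per length, stood at 125, 133, 137 and 133 and 95.4, 106, 108 and 98.9 CPM. Neither gene's groups overlapped, and the log2FC values were -0.74 and -0.37 (edgeR adjusted p = 1.0e-05 and 8.1e-05). The kinase gene PRKCI and the apical membrane protein gene CRB3 had log2FC values of -0.33 and -0.32, and PALS1, a scaffold that binds CRB3, was not called, at 0.06 (edgeR adjusted p = 0.35).

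Of the 6 cadherin and catenin genes tested, 5 were called higher in 2D-primed cells, and E-cadherin was not called. CDH1 (ENSG00000039068, chr16:68737292-68835537), which encodes E-cadherin, stood at 27.6, 29.6, 25.4 and 27.6 CPM in the 2D-primed libraries against 29.0, 27.9, 33.7 and 20.0 CPM in the 3D-primed ones. The 3D-primed values spread on both sides of the 2D-primed ones, replicate 3 being the highest of all 8 libraries and replicate 4 the lowest. The log2FC was 0.01 (95% interval -0.28 to 0.30, edgeR adjusted p = 0.96), and its sign changed with the scaling and with which library was left out. CDH2 (ENSG00000170558, chr18:27932879-28177946), which encodes N-cadherin, the other classical cadherin of hepatocytes, stood at 143, 144, 162 and 147 CPM in the 2D-primed libraries against 109, 116, 117 and 107 CPM in the 3D-primed ones. These groups did not overlap, and the log2FC was -0.41 (SE 0.0503, edgeR adjusted p = 4.7e-05). Per length, CDH2 exceeded CDH1 6.20, 5.85, 7.64 and 6.39-fold in the 2D-primed and 4.49, 4.99, 4.17 and 6.44-fold in the 3D-primed libraries, and these ratios overlapped between the groups because of 3D-primed replicate 4. Per kilobase of all annotated exons the mean ratio was 3.85 in the 2D-primed and 2.97 in the 3D-primed libraries. The intestinal cadherin gene CDH17 had 0 to 2 counts per library.

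All 4 catenins, the cytoplasmic partners of cadherins, were called higher in 2D-primed cells. CTNNA1 (ENSG00000044115, chr5:138610967-138935034), which encodes the actin-binding alpha-catenin, stood at 385, 377, 406 and 382 CPM in the 2D-primed libraries against 235, 238, 248 and 242 CPM in the 3D-primed ones. Within each group the libraries lay close together, and the log2FC was -0.69 (SE 0.0379, edgeR adjusted p = 2.1e-07). CTNNB1 (ENSG00000168036, chr3:41194741-41260096), which encodes beta-catenin, a cadherin-bound protein that is also the transcriptional effector of Wnt signalling, stood at 407, 399.5, 404 and 388 and 319.8, 334, 323 and 352 CPM. HepG2 cells are known to carry an in-frame deletion in this gene, and counts per gene do not separate its alleles. The groups did not overlap, but the change was smaller than that of CTNNA1, with a log2FC of -0.27 (edgeR adjusted p = 0.00020). The ratio of CTNNB1 to CTNNA1 per length accordingly was 1.06 ± 0.0315 among 2D-primed and 1.41 ± 0.0664 among 3D-primed libraries (SD, n = 4), without overlap. Which of these catenins was more abundant in 2D-primed cells depended on the length used. Per kilobase of all annotated exons, CTNNB1 and CTNNA1 stood at 34.0 and 43.9 in 2D-primed and at 28.3 and 27.3 in 3D-primed cells. JUP (ENSG00000173801, chr17:41754604-41786931), which encodes plakoglobin, shared by adherens junctions and desmosomes, stood at 148, 165, 172 and 157 CPM in the 2D-primed libraries against 109.8, 108, 109.7 and 113 CPM in the 3D-primed ones. The 3D-primed libraries were all lower and spread less, with a log2FC of -0.54 (edgeR adjusted p = 4.6e-06). CTNND1, a catenin that binds cadherin tails near the membrane, had a log2FC of -0.39 (edgeR adjusted p = 4.2e-06), and it shared 77.7% of its words with an overlapping gene of the annotation whose identifier is not listed in the files.

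Desmosomes were the class with the lowest median log2FC (-0.61). All 6 desmosomal genes were called higher in 2D-primed cells, without overlap of the groups, and their summed level per length went from 332, 363, 394 and 344 CPM per kilobase in 2D-primed to 152, 166, 181 and 155 in 3D-primed libraries. Most of this came from DSP (ENSG00000096696, chr6:7541338-7586714), which encodes desmoplakin, the protein that anchors keratin filaments to the plaque. DSP stood at 2043, 2301, 2528 and 2157 CPM in the 2D-primed libraries against 632, 698, 810.1 and 619 CPM in the 3D-primed ones. In 2D-primed cells it was the most abundant member per length, and every 3D-primed library was far under the lowest 2D-primed one. The level was 3.27-fold higher in 2D-primed cells, a log2FC of -1.71 (SE 0.0933, edgeR adjusted p = 1.9e-07) that ran over -1.80 to -1.65 with each library left out. DSP alone made up 0.223 ± 0.0184% of a 2D-primed library's counts and 0.0696 ± 0.00859% of a 3D-primed one's (SD, n = 4).

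The desmosomal cadherins changed less than desmoplakin, again by intervals that did not overlap. DSC2 (ENSG00000134755, chr18:31058840-31102522), which encodes desmocollin, stood at 114, 123, 139 and 124 CPM in the 2D-primed libraries against 57.9, 66.6, 74.8 and 61.4 CPM in the 3D-primed ones, a log2FC of -0.94 (SE 0.0830, edgeR adjusted p = 4.4e-06). The desmoglein gene DSG2 had a log2FC of -0.39 (edgeR adjusted p = 0.00042). Per length, DSP exceeded DSG2 4.31, 4.64, 4.70 and 4.46-fold in 2D-primed and 1.87, 1.80, 1.94 and 1.65-fold in 3D-primed libraries, so the makeup of the group shifted from desmoplakin towards the desmoglein. PKP2 and PKP3, plakophilins that cluster desmosomal cadherins, and the related PKP4 had log2FC values of -0.80, -0.43 and -0.28, with adjusted p of 2.7e-07, 0.00021 and 0.00024 in edgeR.

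**Figure D3:**
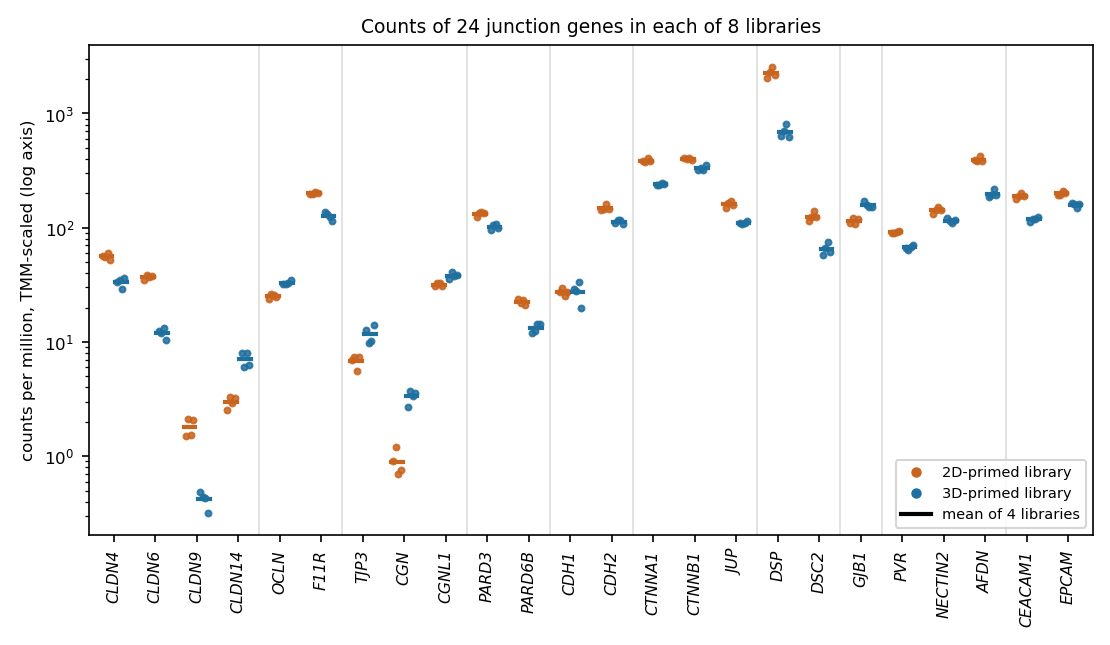
CPM after TMM scaling (y axis, log scale) of 24 junction genes in each of the 8 libraries (points), with the mean of each group as a line, and genes ordered by class (x axis). Points of the groups are separate for all genes shown except CDH1, and DSP has the highest counts in both groups. Transcript lengths differ, so heights of different genes are not to be compared.

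Of the 3 connexin genes among the members, GJB1 alone was tested, and of 5 further connexin and pannexin genes tested PANX1 was called higher in 2D-primed cells (log2FC -0.52, edgeR adjusted p = 3.5e-05) and GJC1 higher in 3D-primed cells (log2FC 0.63, edgeR adjusted p = 0.013). GJB1 (ENSG00000169562, chrX:71212811-71225516), which encodes the main connexin of hepatocytes, stood at 109, 122, 107 and 119 CPM in the 2D-primed libraries against 170.1, 158, 152 and 153 CPM in the 3D-primed ones. All 3D-primed libraries were higher, and the log2FC was 0.47 (SE 0.0552, edgeR adjusted p = 3.5e-05). Per length it stood at 59.1 ± 3.79 and 81.6 ± 4.33 CPM per kilobase (SD, n = 4). GJA1, the most widely expressed connexin gene, had 1 count in 3D-primed replicate 4 and 0 in the other 7 libraries, in which the limit that a count of 0 allows (3 counts) is at most 0.045 CPM per kilobase for counting error alone, and no ratio of the connexins was formed. GJB2, the second connexin of hepatocytes, had 1 to 10 counts per library.

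Afadin changed more than the nectins it binds, with 95% intervals of the log2FC that did not overlap. AFDN (ENSG00000130396, chr6:167826893-167972023), which links nectins to actin, stood at 391, 380.3, 423 and 387 CPM in the 2D-primed libraries against 186, 193, 219 and 192 CPM in the 3D-primed ones. The groups were well separated, at 2.00-fold higher levels in 2D-primed cells (log2FC -1.0, SE 0.0574, edgeR adjusted p = 2.6e-07). NECTIN2 (ENSG00000130202, chr19:44846175-44889223), the most abundant nectin per length, stood at 133, 144, 152 and 143 CPM in the 2D-primed libraries against 122, 113, 111 and 116 CPM in the 3D-primed ones. Its groups did not overlap, with a log2FC of -0.31 (edgeR adjusted p = 0.00031). The nectin-like PVR (ENSG00000073008, chr19:44643798-44666162), the poliovirus receptor and a ligand of immune receptors, stood at 89.5, 89.7, 91.9 and 92.7 and 66.7, 64.3, 67.9 and 69.9 CPM, also apart (log2FC -0.44, edgeR adjusted p = 3.6e-06). It shared 36.5% of its words with other genes, and 34.7% with a single gene whose identifier is not listed in the files. NECTIN3 was lower, with a log2FC of -0.21 (edgeR adjusted p = 0.014) with overlapping groups. NECTIN1 had a log2FC of 0.23 (edgeR adjusted p = 0.030), likewise with overlap, and its call was lost without 2D-primed replicate 3 (adjusted p = 0.079), 2D-primed replicate 4 (0.084), 3D-primed replicate 2 (0.056) or 3D-primed replicate 4 (0.085).

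Both remaining adhesion molecules were higher in 2D-primed cells. CEACAM1 (ENSG00000079385, chr19:42507304-42561234), a canalicular glycoprotein of hepatocytes, stood at 179, 190.0, 202 and 188 CPM in the 2D-primed libraries against 113, 118, 120.3 and 124 CPM in the 3D-primed ones. EPCAM (ENSG00000119888, chr2:47345158-47387601), an epithelial adhesion molecule of progenitor and tumour cells, stood at 194, 193, 208 and 203 and 166, 162, 148 and 161 CPM. In neither gene did the groups overlap, and the log2FC values were -0.67 and -0.33 (edgeR adjusted p = 8.4e-07 and 0.00011). Per length EPCAM was the most abundant member in 3D-primed cells, at 103 ± 5.02 CPM per kilobase, before CTNNB1 at 90.7 ± 3.94, GJB1 at 81.6 ± 4.33 and DSP at 71.2 ± 8.99. The order behind EPCAM depended on the length used, since per kilobase of all annotated exons DSP stood at 50.7, GJB1 at 34.0 and CTNNB1 at 28.3.

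Over all 46 members, the summed level per length was 1276, 1328, 1390.2 and 1306 CPM per kilobase in 2D-primed and 917, 921, 928 and 915 in 3D-primed libraries. Among 2D-primed libraries, replicate 1 had the lowest value of its group in 20 of the 42 genes and replicate 3 the highest in 18. Without either of them, the number of members called higher in 2D-primed cells was 27, as with all libraries.

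A second list of 120 further genes, made up of junction genes that are not members and of factors of epithelial state, was read from the same fit, and 60 of them were tested. Of these, 27 (45.0%) were called as higher in 2D-primed cells and 15 (25.0%) as higher on the scaffold, against 31.6% and 32.4% of all genes, with a median log2FC of -0.25. Of 4 further desmosomal genes tested, PPL and PERP were called, both higher in 2D-primed cells. PPL, which encodes periplakin, a keratin linker related to desmoplakin, went from 78.3 ± 5.59 CPM (2D-primed) to 16.8 ± 2.63 CPM (3D-primed) (log2FC -2.22, edgeR adjusted p = 6.3e-08). PERP, a desmosomal membrane protein, stood at 412 ± 29.4 and 183 ± 19.4 CPM (log2FC -1.17, edgeR adjusted p = 6.6e-07). The other plakin gene, EVPL, was not called, at 0.15 (edgeR adjusted p = 0.091), and passed the threshold without 3D-primed replicate 1 (edgeR adjusted p = 0.028).

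Of 16 further tight junction genes tested, claudins apart, 10 (62.5%) were called with higher 2D-primed levels, against 31.6% of all genes. The scaffold gene MPDZ alone (6.25%, against 32.4%) was called with higher 3D-primed levels (log2FC 0.79, edgeR adjusted p = 9.3e-06). Of 15 polarity genes 5 were called in each direction (33.3%), near the shares of all genes. Of 3 claudins CLDN19 and CLDN23 were called, both higher in 3D-primed cells. CLDN23 (log2FC 1.54, edgeR adjusted p = 0.016) had 0.137, 0.0432 and 0.163 CPM in 2D-primed replicates 1 to 3. These are fewer than 10 counts each, so CLDN23 needed 3D-primed libraries to pass the filter. ESAM, an adhesion molecule best known from endothelium, had the most negative change, from 3.55 ± 0.334 to 0.651 ± 0.249 CPM (log2FC -2.45, edgeR adjusted p = 1.0e-05). The endothelial cadherin gene CDH5 was also low and fell, from 4.73 ± 0.703 to 1.59 ± 0.330 CPM (log2FC -1.56, edgeR adjusted p = 2.7e-05). AMOTL2, which encodes an actin-binding angiomotin, fell by 1.21 on the log2 scale, and the scaffold genes PATJ and MAGI2 by 0.87 and 0.86 (edgeR adjusted p = 7.7e-08, 2.9e-06 and 7.3e-05). On the other side, CLDN19, a claudin known from kidney, went up from 5.06 ± 0.974 to 12.7 ± 1.48 CPM (log2FC 1.32, edgeR adjusted p = 1.6e-05). LLGL1, a polarity gene of the lateral membrane, rose by 0.83 on the log2 scale, while its paralog LLGL2 fell by 0.34 (edgeR adjusted p = 3.2e-06 and 1.6e-05).

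**Figure D4:**
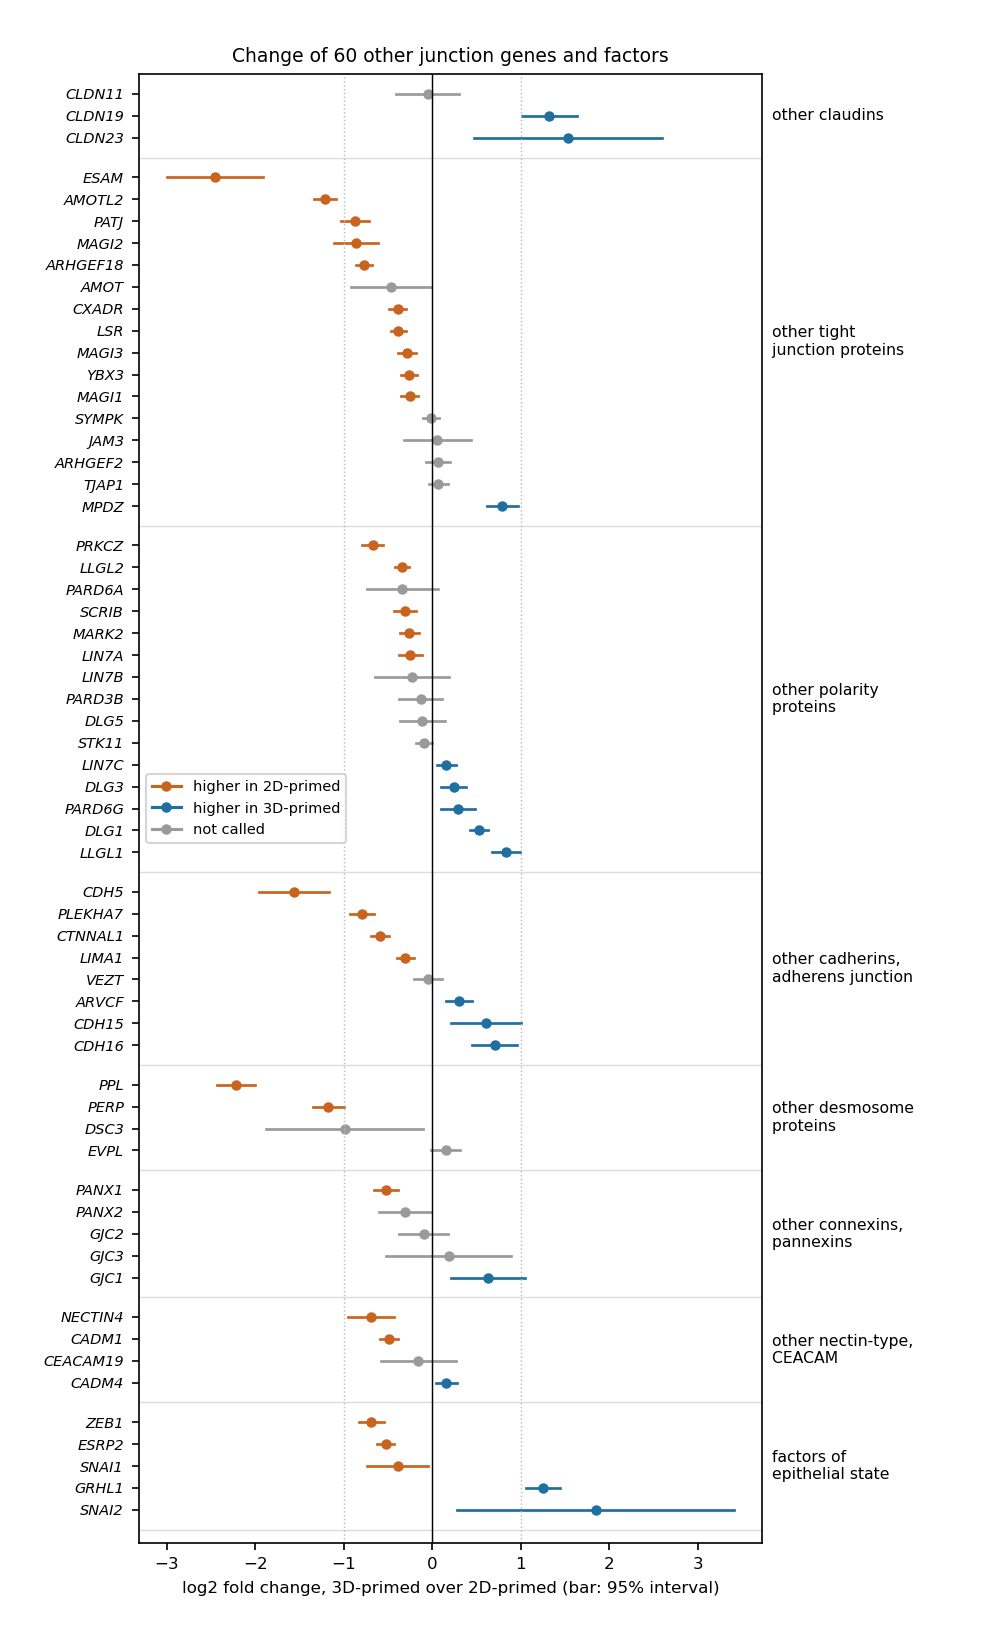
Log2 fold change of the 60 further junction genes and factors tested, 3D-primed over 2D-primed (x axis, points, with unadjusted 95% intervals as bars), grouped by class (y axis), with dotted lines at a 2-fold change. PPL, ESAM, CDH5, AMOTL2 and PERP lie left of the lower line, and CLDN19, CLDN23, GRHL1 and SNAI2 right of the upper one.

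Of the 13 transcription and splicing factors of epithelial state on that list, 5 were tested and all 5 were called, although the calls of SNAI1 and SNAI2 were not stable. ZEB1, a zinc finger repressor of epithelial genes, was the most abundant repressor, at 32.3, 34.9, 36.4 and 33.8 CPM in the 2D-primed libraries against 20.1, 21.4, 23.6 and 20.1 CPM in the 3D-primed ones, without overlap (log2FC -0.69, edgeR adjusted p = 5.4e-06). SNAI1, a repressor that binds the same E-box word, stood at 2.60 ± 0.346 and 1.98 ± 0.205 CPM (log2FC -0.39, edgeR adjusted p = 0.047). SNAI2 was barely detected, at 0.0458, 0.0432, 0.0407 and 0.338 CPM in the 2D-primed libraries against 0.377, 0.487, 0.179 and 0.715 CPM in the 3D-primed ones, with overlapping groups and a log2FC of 1.85 (edgeR adjusted p = 0.040). Leaving out single libraries removed the call of SNAI1 in 7 of 8 cases (edgeR adjusted p up to 0.12) and that of SNAI2 in 6 of 8 (up to 0.11), and the log2FC of SNAI2 ran over 1.5 to 3.2. SNAI1 stayed called without 2D-primed replicate 4, and SNAI2 without 2D-primed replicate 4 or 3D-primed replicate 3. GRHL1, a grainyhead factor that activates epithelial genes, went up from 6.79 ± 0.838 to 16.1 ± 0.681 CPM (log2FC 1.25, edgeR adjusted p = 8.5e-07). ESRP2, an epithelial splicing factor, fell from 53.9 ± 1.61 to 37.4 ± 1.46 CPM (log2FC -0.53, edgeR adjusted p = 2.0e-06). The 5 factors thus moved in both directions.

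Sequence upstream of RefSeq starts of the members was read for the E-box CACCTG, the word that SNAI and ZEB factors bind, on either strand (CAGGTG on the printed strand marks the reverse). RefSeq promoter windows on GRCh38.p14 were matched for 34 of the 46 members, and the 250 bases before the RefSeq start were searched. No window was matched for CLDN9, MARVELD3, F11R, PARD3, PARD6B, CDH1, CDH17, CTNND1, PKP2, PKP3, NECTIN1 and EPCAM. At least 1 word was found for 12 of these 34 genes (35.3%), against 20.6% of all 27305 genes with a window. By direction, 7 of 18 genes higher in 2D-primed cells (38.9%) and 3 of 9 higher in 3D-primed cells (33.3%) held it, and the genes with several windows had more chances of a match. Windows are printed 5′ to 3′ on the strand of the gene for DSP and AFDN, which were at least 2-fold higher in 2D-primed cells, for the called cadherin CDH2 and for CGN, the member with the largest rise, with the E-box in capitals. Of the other members with at least a 2-fold change, CLDN6 held no word in its window and CLDN14 held 1 in 1 of its 3 windows. The 4 printed windows lie inside the GENCODE gene spans given above, whose outermost start is further upstream than the RefSeq start used. The DSP window (chr6:7541421-7541670, plus strand) held 2 words, starting 178 and 85 bases before the start, both on the reverse strand. The AFDN window (chr6:167827385-167827634, plus strand) held 4, starting 150, 126, 114 and 16 bases before the start. The CDH2 window (chr18:28177131-28177380, minus strand) and the CGN window (chr1:151511137-151511386, plus strand) held none.
DSP: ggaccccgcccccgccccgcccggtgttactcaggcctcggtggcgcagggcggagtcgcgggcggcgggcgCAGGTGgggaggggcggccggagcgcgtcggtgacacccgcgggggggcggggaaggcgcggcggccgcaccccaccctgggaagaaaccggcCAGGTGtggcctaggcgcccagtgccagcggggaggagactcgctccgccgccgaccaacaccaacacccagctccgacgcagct
AFDN: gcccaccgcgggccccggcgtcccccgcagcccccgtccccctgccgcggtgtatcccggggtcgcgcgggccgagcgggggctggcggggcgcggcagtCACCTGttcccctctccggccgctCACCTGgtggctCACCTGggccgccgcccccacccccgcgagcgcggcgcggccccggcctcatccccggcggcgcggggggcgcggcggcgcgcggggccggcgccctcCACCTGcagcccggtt
CDH2: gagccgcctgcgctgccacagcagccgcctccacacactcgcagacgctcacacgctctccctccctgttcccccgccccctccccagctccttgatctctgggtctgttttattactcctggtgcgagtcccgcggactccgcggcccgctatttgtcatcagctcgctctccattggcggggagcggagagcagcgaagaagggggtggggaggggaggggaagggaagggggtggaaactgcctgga
CGN: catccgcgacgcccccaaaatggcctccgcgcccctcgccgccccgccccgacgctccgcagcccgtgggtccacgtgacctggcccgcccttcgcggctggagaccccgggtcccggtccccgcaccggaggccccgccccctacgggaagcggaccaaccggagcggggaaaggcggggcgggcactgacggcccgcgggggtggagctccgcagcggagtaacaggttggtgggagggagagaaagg
The G and C content of these windows was 78.0, 84.8, 66.0 and 76.0%. Among the 34 members, 2 or more words in a window were found for AFDN, CRB3, DSG2, DSP and JUP, all called higher in 2D-primed cells, as were 18 of the 27 called members with a window, and for CLDN7, which was not tested. These 6 are 17.6% of the 34 genes, against 3.08% of all 27305 genes with a window, which include genes that were not tested here. Counted by window, 13 of 50 member windows (26%) held at least 1 word, against 17.5% of all 35116 windows. Whether the words go with the direction of change was not tested. A match is a stretch of letters, not a measured binding site.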

How the data were processed

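Polyadenylated RNA was sequenced in read pairs with a directional kit. The authors deposited estimated counts per gene, 1 file per library, from Salmon on Ensembl human cDNA (GRCh38), with tximport used to add up transcripts. All values are whole numbers. The tximport setting for transcript length is not given in the sources used here. Groups follow the labels.

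All genes that had 10 or more counts in 2 or more libraries were fitted together in edgeR 4.0.16 (TMM, glmQLFit, glmQLFTest; R 4.3.3), with Benjamini-Hochberg adjustment over all 13943 genes and a threshold of 0.05. Standard errors are the log2 fold change over the root of F. Intervals cover 95%. The pipeline was also run on simulated data in which few genes changed, unlike here, and no result here rests on that run. The common dispersion gives a coefficient of variation of 0.0934, and libraries of a group differed by more than counting noise. Symbols, positions and lengths came from GENCODE on GRCh38. Words of 31 bases shared between genes were counted in its transcripts. Tables were made in Python 3.11.15 with pandas 2.3.3.

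The members and lists were chosen with earlier results of these data known. By rule, library values are given for the 2 called members with the largest change and the member with the highest level per length in each class, for members called with at least a 2-fold change, and named are the 10 further junction genes with the largest called change at a mean of at least 1 CPM and every called factor. CLDN1, LLGL2, EVPL, MPDZ, PANX1, GJC1, CLDN23, the markers named singly and the promoters shown were chosen after their values were seen. 1 gene was taken off the list of further junction genes for a reason unrelated to its values and is not reported here. CDH1 was fixed for the ratio to CDH2.

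Alternatives were DESeq2 1.42.0, limma-voom (limma 3.58.1), median-of-ratios (RLE), total-count and upper-quartile scaling, 3 other filters, leaving out each library, a replicate block, all-exon lengths and, added after seeing the data, adding the read-through counts to F11R and the median of all genes under each scaling. The paper's liver tissue and primary hepatocyte data were not used here.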

Additional observations from a re-analysis of the deposited data

Results flagged for a closer look

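In 112 groups of 4 libraries, the CPM of the 42 members and of the further junction genes named by rule were examined for a library far from the others of its group, at a level at which chance flags about 5% of groups, and 3 stood out. The lowest library of PKP3 in 3D-primed cells was replicate 3, at 30.9 CPM, where the others had 34.3 to 34.8. For CDH5, 2D-primed replicate 2 was at 3.67 CPM, where the others had 5.04 to 5.13. For SNAI2, 2D-primed replicate 4 was at 0.338 CPM, where the others had 0.041 to 0.046, that is 8 counts against 1 in each.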

How the results depend on the processing

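The number of members called ran over 26 to 27 for higher levels in 2D-primed and over 9 to 10 for higher levels in 3D-primed cells in all alternatives run, 26 being reached where 10 counts were required in all 8 libraries, which left 41 members. For the further genes they ran over 26 to 29 and 13 to 19, and over all genes over 3975 to 4486 and 4122 to 5095. Of 714 values of single members under alternatives, 701 kept their direction and their side of the threshold, and 36 of 37 called members kept both wherever they were tested, CLDN9 not being tested where 10 counts were required in all 8 libraries. The exception was NECTIN1, which kept its direction but lost its call as given above and under the replicate block. CDH1, which was not called, changed sign, to -0.0029 with DESeq2, -0.011 with limma-voom, -0.0019 with RLE scaling and -0.011 with the replicate block, and ran over -0.11 to 0.14 with single libraries left out. Of 470 such values of 28 other named genes, 442 kept both, SNAI1, SNAI2 and VWF lost their calls in 25, as SNAI1 did under DESeq2 (adjusted p = 0.098), total-count (0.063) and upper-quartile scaling (0.075), no filter (0.092) and the replicate block (0.098), and VWF under DESeq2 (0.056) and the block (0.059), and EVPL and PECAM1 were called in 3, EVPL under upper-quartile scaling (0.035) and each without 1 library. The median log2 fold change of all genes was 0.0035, 0.042 and 0.064 under RLE, total-count and upper-quartile scaling. With the read-through counts added, F11R had a log2 fold change of -0.74. Per kilobase of all annotated exons, the ratio of CDH2 to CDH1 was 3.85 and 2.97, as given above, and GJB1 stood at 24.6 and 34.0. With 1 library left out, the 2D-primed and 3D-primed means of the CDH2 to CDH1 ratio per canonical length ran over 6.15 to 6.74 and 4.55 to 5.31.

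Libraries of the 2 groups share replicate numbers, but deviations of same-numbered libraries from their group means correlated at -0.043, -0.014, 0.057 and 0.0062, and not every library correlated best with its own number, so the numbers were not taken as pairs. With the replicate number as a block, 27 and 9 members were called, and NECTIN1 had an adjusted p of 0.054 in edgeR.

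Depth limits CLDN9, CLDN2, CLDN3 and CGN among the members, ESAM, CLDN23, SNAI2, COL1A1 and VWF among other genes, and the 4 members that did not pass the filter. The way Salmon divided reads between genes with shared words, such as F11R and its read-through gene, is not recorded in the files, nor is whether strand was used, which bears on members with antisense neighbours. For CTNND1 and PVR, the gene that shared most words has no identifier in the files.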
